A study of Mus musculus with 9 samples.

Results

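The miRNAs in liver exosome libraries from hepatocyte Hsp90β knockout mice on a high fat, fructose and cholesterol (HFFC) diet were set against those of floxed mice on chow. The sample titles and the study's methods call the material exosomes, whereas the extraction protocol in the labels describes total RNA from ground tissue, so vesicle and tissue RNA cannot be told apart here. The libraries were taken by the sample titles, 3 of knockout mice on HFFC (KO HFFC) and 3 of floxed mice on chow (flox chow), which is 6 of the 9 libraries in the study. All 722 entries of the count table were used, 591 with a miRBase name and 131 predicted. The other 3 libraries, of floxed mice on HFFC (flox HFFC), entered the fit for the estimate of spread and are given beside some of the results. The study reports that knockout mice carry an Albumin-Cre transgene, which acts in hepatocytes, on the floxed Hsp90ab1 alleles that every group shares. By this design the other liver cells that release exosomes are meant to keep the gene, which was not checked here. Diet and genotype both differ between the 2 groups and cannot be told apart, since no knockout library on chow was analysed here. The deletion itself could not be checked, because the mRNA of Hsp90ab1 is not measured by small RNA sequencing. The labels give neither an age nor a time on the diet.

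miRNAs are short RNAs that guide silencing complexes to mRNAs, mainly by pairing through the seed near their 5′ end, so that miRNAs with 1 seed share many targets. Exosomes are small vesicles that cells release, and the miRNAs they carry can be taken up by other cells. Liver tissue holds hepatocytes, rich in miR-122, with macrophages, endothelial cells, stellate cells and bile duct cells, all of which can release vesicles.

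The mature sequences of the miRNAs that carried the comparison are shown with the seed (bases 2 to 8) in capitals, so that shared seeds can be seen. They were read from the RefSeq annotation of GRCm38.p6, in which 498 of the 591 named entries were found. The first are miR-125a-5p, miR-125b-5p, miR-99b-5p, the paired arms of miR-802, and miR-149-5p, whose KO HFFC libraries all stood above the chow libraries.
miR-125a-5p: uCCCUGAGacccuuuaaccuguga
miR-125b-5p: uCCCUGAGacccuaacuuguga
miR-99b-5p: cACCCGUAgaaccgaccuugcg
miR-149-5p: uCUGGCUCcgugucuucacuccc
miR-802-5p: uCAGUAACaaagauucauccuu
miR-802-3p: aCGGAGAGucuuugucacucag
The next are pairs with 1 seed whose members differed in the size of their values, miR-181a-5p with miR-181b-5p and miR-92a-3p with miR-92b-3p.
miR-181a-5p: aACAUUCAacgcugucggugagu
miR-181b-5p: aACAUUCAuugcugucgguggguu
miR-92a-3p: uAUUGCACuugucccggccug
miR-92b-3p: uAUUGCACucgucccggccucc
Negative values are shown by miR-7a-5p, the miR-148 pair, miR-19b-3p and the abundant let-7 members let-7a-5p, let-7f-5p and let-7g-5p, beside which stands let-7e-5p, a less abundant relative near 0.
let-7a-5p: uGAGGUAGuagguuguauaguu
let-7f-5p: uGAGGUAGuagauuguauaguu
let-7g-5p: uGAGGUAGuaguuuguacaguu
let-7e-5p: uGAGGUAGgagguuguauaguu
miR-7a-5p: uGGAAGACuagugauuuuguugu
miR-148a-3p: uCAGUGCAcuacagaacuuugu
miR-148b-3p: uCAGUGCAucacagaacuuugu
miR-19b-3p: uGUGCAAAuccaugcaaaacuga
The last had very low counts in all but 2 libraries of the study.
miR-204-5p: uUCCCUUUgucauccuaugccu
miR-211-5p: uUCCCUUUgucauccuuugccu
miR-205-5p: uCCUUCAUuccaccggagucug
miR-200c-3p: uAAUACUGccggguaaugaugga
Counted from 1 at the 5′ end, let-7f-5p differs from let-7a-5p by the single substitution G12A and let-7e-5p by U9G, and miR-211-5p differs from miR-204-5p by A17U. The sources used here do not say how reads that fit several of these sequences were assigned, so the split between near-identical members is uncertain.

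The 6 libraries held 422825, 457678 and 306626 miRNA counts in KO HFFC and 485453, 681286 and 218256 in flox chow. They took 1.52% ± 0.300 of all library tags in KO HFFC and 1.74% ± 0.880 in flox chow (SD, n = 3 each), an exact two-sided permutation p of 0.8. Flox chow replicate 3 stood apart by its muscle miRNAs, with 1287 counts of miR-1a-3p, miR-133a-3p and miR-206-3p in sum against 39 to 88 in the other 8 libraries. On the first principal component (27.9% of variance) flox chow replicate 3 and KO HFFC replicate 3 stood apart (scores of 11.8 and 9.78). The rest lay from −11.4 to 1.22, with KO HFFC replicates 1 and 2 at 0.61 and 1.22. KO HFFC replicates 2 and 3 stood apart on the second principal component (20.4% of variance, scores of 9.53 and 9.99). Flox chow replicate 3 stood apart on its other side (−9.99), and the rest lay from −3.83 to 0.72. Levels are given as CPM, counts per 1e+06 counts scaled with TMM factors. The study counts 3 mice per group, and p-values measure the spread between these libraries.

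No entry passed the test between KO HFFC and flox chow. edgeR called 0 of the 248 entries with enough counts (0%) at an adjusted p of 0.05, and the lowest adjusted p was 0.140, for miR-125a-5p and miR-149-5p. At an unadjusted p under 0.05 there were 32 entries (12.9%), 17 higher in KO HFFC (6.85%) and 15 lower (6.05%). DESeq2 called 6 of 718 (0.836%), all higher in KO HFFC (miR-125a-5p, miR-149-5p, miR-181b-5p, miR-92b-3p, miR-204-5p and miR-205-5p), while limma-voom called 0 and had 25 at an unadjusted p under 0.05. All 3 KO HFFC libraries lay outside the range of the chow libraries for 44 of the 248 entries (17.7%), 20 above it (8.06%) and 24 below it (9.68%). Of the 32 entries at an unadjusted p under 0.05, 20 were among these 44, 10 in each direction. By sign alone 118 of the 248 entries were above 0 (47.6%) and 130 below (52.4%). The balance of directions rested on the scaling. The 17 higher and 15 lower entries became 20 and 7 with plain library totals and 9 and 24 with upper-quartile factors, and the 20 and 24 entries outside the chow range became 28 and 9, and 14 and 32. As shares of miRNA counts, which are plain totals, all 20 entries above the chow range stayed above it, while 15 of the 24 below it overlapped with it. These 15 included let-7a-5p, miR-98-5p, miR-7a-5p, both miR-148 members, miR-30a-5p, miR-30b-5p, miR-511-3p and miR-101a-3p. The median log2 fold change over the 248 entries was −0.05 with TMM, 0.18 with plain totals and −0.22 with upper-quartile factors, so values of groups of miRNAs are read against that median.

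**Figure D1:**
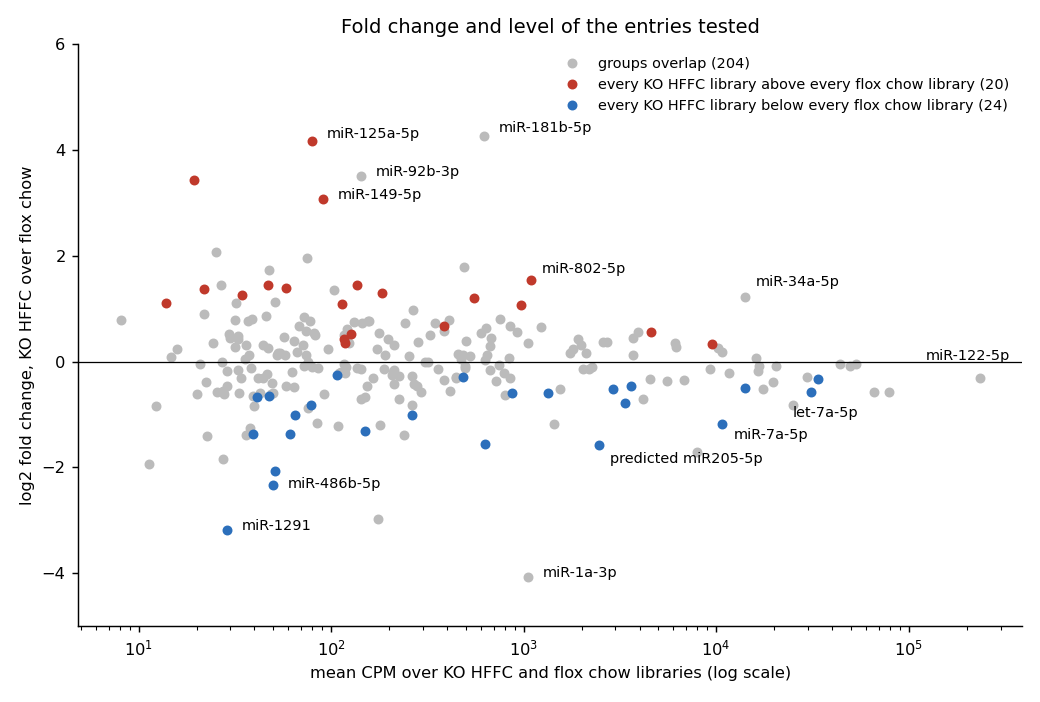
Log2 fold change of KO HFFC over flox chow (vertical axis) against the mean CPM of the 6 libraries (horizontal axis, log scale) for the 248 entries tested, 1 point each. Red points (20) had every KO HFFC library above every flox chow library, blue points (24) every one below, and grey points overlapped. miR-125a-5p and miR-149-5p are the red points above 3 that carry a name, while miR-181b-5p and miR-92b-3p are grey.

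The miR-125 pair had positive values in KO HFFC against flox chow, and no member of their family passed the test in edgeR. miR-125a-5p, which targets signalling and cell survival mRNAs together with miR-125b-5p, had 41.4, 131 and 284 CPM in KO HFFC (19, 70 and 95 counts) against 6.56, 10.8 and 5.66 CPM in flox chow (3, 8 and 1 counts). The flox HFFC libraries held 0, 7 and 6 counts, so that the KO HFFC libraries were the 3 highest of the 9. Its log2 fold change was 4.16 ± 0.92 (SE), with a 95% interval of 2.15 to 6.17 and an edgeR adjusted p of 0.140, and the value was 3.37 without KO HFFC replicate 3. It passed the low-count filter through its counts in the KO HFFC libraries alone. DESeq2, which was run without that filter, called it (adjusted p = 0.00204). edgeR without KO HFFC replicate 1 also called it (log2 fold change 4.55, adjusted p = 0.0278), and this edgeR call carries that selection. miR-125b-5p had 421, 177 and 188 CPM in KO HFFC against 111, 135 and 67.9 in flox chow, and 83.6, 85.9 and 60.7 in flox HFFC. In this case KO HFFC replicate 1 was the highest library, and the log2 fold change of 1.30 ± 0.49 became 0.69 without it. miR-125a shares chr17:17830194-17830876 (plus strand, GRCm38) with miR-99b and let-7e, inside the protein-coding gene Spaca6. There miR-99b-5p had 554, 586 and 1161 CPM in KO HFFC against 247, 407 and 351 in flox chow, a log2 fold change of 1.19 ± 0.46, or 0.71 without KO HFFC replicate 3. Its other arm, miR-99b-3p, had 7, 16 and 25 counts against 4, 4 and 3, and its CPM overlapped between the groups. let-7e-5p of the same stretch did not follow in size, with 325, 511 and 606 CPM in KO HFFC against 503, 412 and 475 in flox chow. Over the miR-10, miR-99, miR-100 and miR-125 relatives, 6 of 7 had positive values and 4 lay above the chow range (8.06% over all entries tested), with a median of 1.19 against −0.05 over all entries. The exception was miR-10a-5p, at −0.07, which was positive with plain totals. The median of the 7 was 0.63 without KO HFFC replicate 3 and 0.69 without KO HFFC replicate 1.

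**Figure D2:**
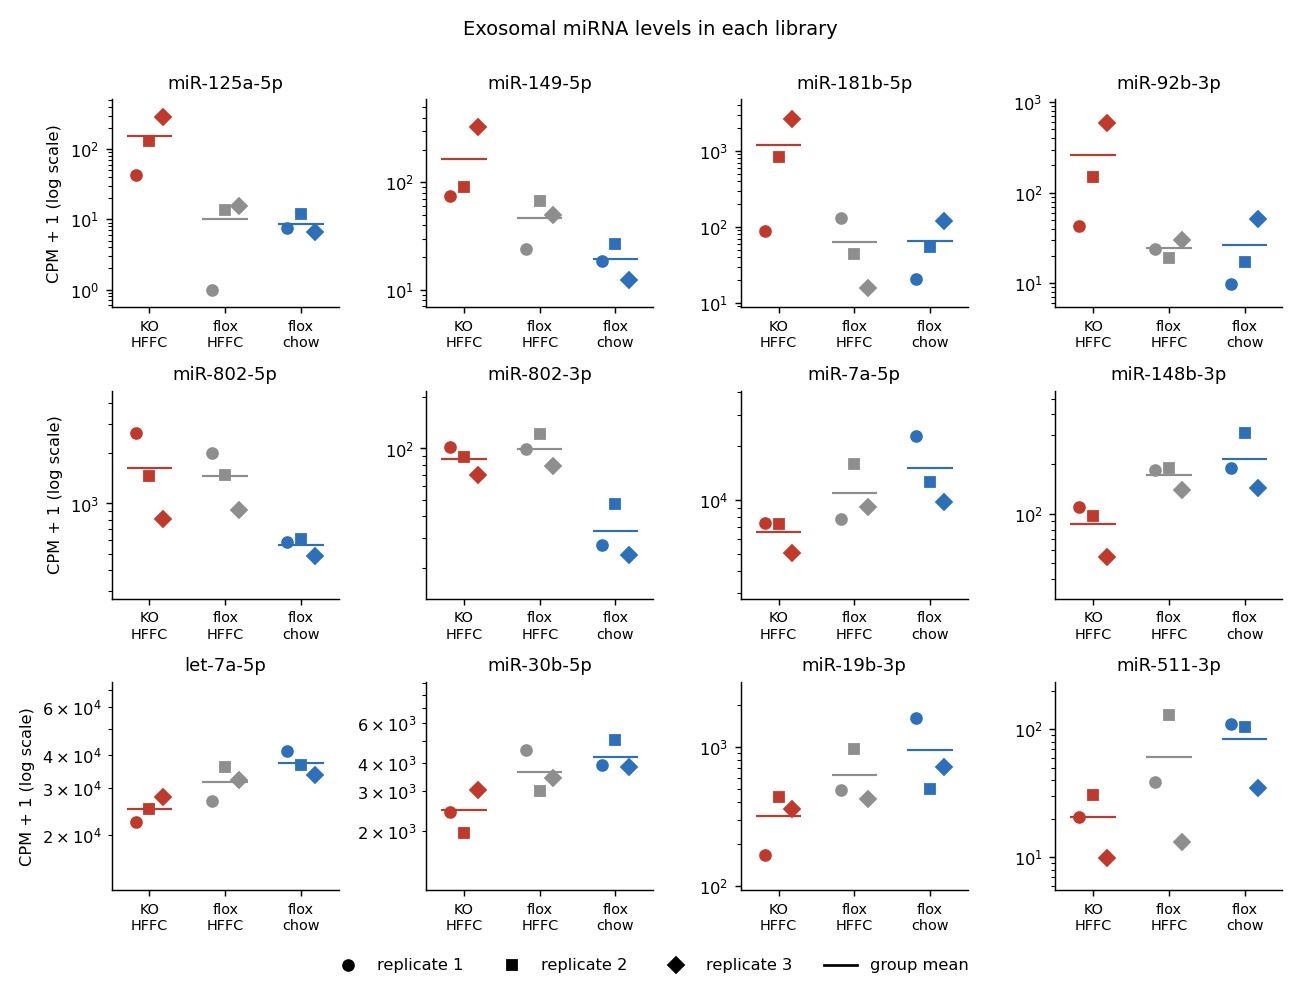
CPM plus 1 (log scale) of 12 leading miRNAs in each library, with KO HFFC at the left in red, flox HFFC in grey and flox chow at the right in blue. Marker shape gives the replicate number, which does not tie libraries of different groups, and bars are group means. miR-181b-5p and miR-92b-3p were high in KO HFFC replicates 2 and 3, whereas both arms of miR-802 overlapped between KO HFFC and flox HFFC and lay above flox chow in both.

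Large values, with levels that differed within the knockout group, were also found for miR-181b-5p, miR-92b-3p and miR-149-5p. miR-149-5p, encoded in an intron of Gpc1 at chr1:92850381-92850403 (plus strand), had 74.2, 89.6 and 328 CPM in KO HFFC against 17.5, 25.7 and 11.3 in flox chow, with 22.8, 66.2 and 48.6 in flox HFFC. KO HFFC and flox chow did not overlap, with a log2 fold change of 3.07 ± 0.72 (edgeR adjusted p = 0.140), or 2.08 without KO HFFC replicate 3. miR-92b-3p had 41.4, 147 and 594 CPM in KO HFFC against 8.74, 16.2 and 50.9 in flox chow. KO HFFC replicate 1 lay below flox chow replicate 3, so the groups overlapped, and the log2 fold change was 3.51 ± 0.96, or 1.95 without KO HFFC replicate 3. miR-181b-5p, known in immune and endothelial cells for effects on NF-κB signalling, had 87.2, 821 and 2653 CPM in KO HFFC against 19.7, 54.1 and 119 in flox chow, with 129, 43.0 and 14.6 in flox HFFC. The value of KO HFFC replicate 1 lay within the chow range, and the log2 fold change of 4.26 ± 1.27 became 0.52 when KO HFFC replicates 2 and 3 were left out together. miR-92b-3p became 0.84 in the same way and miR-125a-5p 2.38, while miR-149-5p kept 2.01.

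The closest relatives by sequence had smaller values. miR-181a-5p, which shares the seed of miR-181b-5p and both of its genomic clusters, had 4637, 5499 and 6330 CPM in KO HFFC against 3747, 4054 and 3320 in flox chow, a log2 fold change of 0.57 ± 0.31. All 4 tested miR-181 members had positive values under each scaling (median 0.61). miR-92a-3p, with the seed of miR-92b-3p, lay the other way, at 750, 578 and 746 CPM in KO HFFC against 1049, 812 and 1261 in flox chow. Its log2 fold change of −0.59 ± 0.37 had an unadjusted p of 0.139 in edgeR.

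Both arms of miR-802, a hepatocyte miRNA known to be raised in obese liver, had every KO HFFC library above every flox chow library, without passing the test. miR-802-5p had 2635, 1452 and 803 CPM in KO HFFC against 584, 613 and 481 in flox chow, and flox HFFC had 2002, 1487 and 911. miR-802-3p had 100, 87.7 and 68.6 CPM in KO HFFC against 26.2, 45.9 and 22.6 in flox chow, with 98.8, 120 and 77.7 in flox HFFC. On both arms every library on HFFC, of either genotype, lay above every chow library. The log2 fold changes of KO HFFC over flox chow were 1.54 ± 0.48 and 1.39 ± 0.50 (edgeR adjusted p of 0.275 and 0.345). They were 2.27 and 1.67 with KO HFFC replicates 2 and 3 left out together, and without KO HFFC replicate 1 the value of miR-802-5p was 0.89. Values of flox HFFC over flox chow rest on the same chow libraries. Of the 31 hairpins with both arms tested, 21 had arms of 1 sign, and miR-802 was the single hairpin with both arms outside the chow range. The hairpin lies at chr16:93369720-93369816 (plus strand) with no annotated gene on that strand.

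Further positive values, none of which passed the test, were found for miR-34a-5p, miR-222-3p, miR-342-3p and part of the miR-200 family. The p53 target miR-34a-5p, raised in fatty liver disease, had 20515, 28126 and 10356 CPM in KO HFFC against 13434, 7908 and 4078 in flox chow, with 17082, 35055 and 13582 in flox HFFC. KO HFFC replicate 3 lay below flox chow replicate 1, so the groups overlapped, and the log2 fold change was 1.21 ± 0.51, or 0.80 without KO HFFC replicate 2. miR-222-3p, a regulator of the cell cycle inhibitor p27, had 120, 153 and 325 CPM in KO HFFC against 43.7, 100 and 73.5 in flox chow (1.45 ± 0.56 on the log2 scale, or 0.87 without KO HFFC replicate 3). Its cluster partner with the same seed, miR-221-3p, had 406, 297 and 492 CPM in KO HFFC against 584, 508 and 379 in flox chow. The blood cell miRNA miR-342-3p had 164, 108 and 191 CPM in KO HFFC against 65.6, 78.4 and 73.5 in flox chow, a log2 fold change of 1.08 ± 0.49. Its levels in flox HFFC, 281, 136 and 104 CPM, were also above the chow range. Among miRNAs of the miR-200 family, which maintains epithelial identity, miR-141-3p had 89.4, 50.4 and 68.6 CPM in KO HFFC against 19.7, 32.4 and 22.6 in flox chow (1.45 ± 0.63). miR-429-3p had 1675, 866 and 1415 CPM in KO HFFC against 660, 720 and 503 in flox chow (1.07 ± 0.56). Neither passed, with edgeR adjusted p of 0.350 and 0.509. The other tested members, miR-200a-3p at 0.12 ± 0.49 and miR-200b-3p at −0.17 ± 0.84, overlapped between the groups. Overlapping groups were found for miR-466i-5p, miR-183-5p and miR-378c, with log2 fold changes of 1.78, 1.95 and 1.74. When KO HFFC replicates 2 and 3 were left out together these became −0.03, 0.04 and −0.10.

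Of the let-7 family, regulators of growth, differentiation and glucose metabolism, 7 of 9 tested members had negative values and 0 passed the test. let-7a-5p had 22447, 24989 and 27864 CPM in KO HFFC against 41394, 36703 and 33529 in flox chow, with 26936, 35897 and 32082 in flox HFFC. These CPM did not overlap between KO HFFC and flox chow, and the log2 fold change was −0.57 ± 0.21 with a 95% interval of −1.02 to −0.11 (edgeR adjusted p = 0.345). Without the TMM factors they did overlap, as let-7a-5p took 2.43%, 2.93% and 3.05% of miRNA counts in KO HFFC against 3.90%, 3.99% and 2.72% in flox chow. let-7f-5p (56229, 60145 and 74636 CPM in KO HFFC against 112593, 69711 and 101384 in flox chow) overlapped through flox chow replicate 2. let-7g-5p overlapped through the same library, at 51116, 43830 and 64025 CPM in KO HFFC against 92036, 56201 and 89280 in flox chow. The second member outside the chow range in CPM was miR-98-5p, with 1778, 2506 and 2946 CPM in KO HFFC against 3786, 3301 and 3264 in flox chow. By CPM 2 of the 9 members lay below the chow range and 0 above it (9.68% and 8.06% over all entries tested), and the exceptions to the negative sign, let-7d-5p (0.19) and let-7e-5p (0.05), turned negative with upper-quartile factors. The family median was −0.51, which is −0.47 relative to all entries and −0.45 to −0.48 under the other scalings. In sum the 9 members held 186650 to 227080 CPM in KO HFFC and 243780 to 332730 in flox chow, without overlap, whereas their shares of counts overlapped, at 21.9% to 24.8% in KO HFFC and 24.0% to 31.4% in flox chow. The members were not independent, as near-identical sequences can exchange reads.

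Negative values, none of which passed the test, were also found in the miR-7, miR-148, miR-30 and miR-17-92 groups. miR-7a-5p, a regulator of growth factor signalling, had 7433, 7312 and 5020 CPM in KO HFFC against 22602, 12611 and 9734 in flox chow, with 7817, 15947 and 9143 in flox HFFC. In CPM every KO HFFC library was below all others of the study, and as shares of counts the groups overlapped (0.806%, 0.856% and 0.549% in KO HFFC against 2.13%, 1.37% and 0.789% in flox chow). The log2 fold change was −1.19 ± 0.37 (edgeR adjusted p = 0.275), or −0.87 without flox chow replicate 1. miR-148b-3p had 109, 95.2 and 53.7 CPM in KO HFFC against 188, 308 and 141 in flox chow, a log2 fold change of −1.31 ± 0.47. Its relative miR-148a-3p, which in liver restrains LDL receptor expression, had 14866, 8648 and 11371 CPM in KO HFFC against 16608, 17816 and 15164 in flox chow, a log2 fold change of −0.51 ± 0.27, or −0.84 without KO HFFC replicate 1. The CPM of both lay below the chow range in all KO HFFC libraries, although the sequences of these relatives differ at 2 positions. The third with this seed, miR-152-3p, was at −0.01, and it was positive with plain totals and with all library tags.

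miR-30b-5p, of a family known to restrain fibrosis, had 2432, 1963 and 3023 CPM in KO HFFC against 3893, 5056 and 3823 in flox chow (−0.78 ± 0.31 on the log2 scale). miR-30a-5p had 2872, 3342 and 2847 CPM in KO HFFC against 4343, 4413 and 3790 in flox chow (−0.47 ± 0.28). All 5 members had negative values, of which 2 turned positive with plain totals, and their summed level was 12203 to 13046 CPM in KO HFFC and 15497 to 18678 CPM in flox chow. As a share of counts this sum overlapped, at 1.37% to 1.43% in KO HFFC and 1.26% to 1.91% in flox chow. miR-19b-3p, a member of the miR-17-92 cluster, had 168, 435 and 355 CPM in KO HFFC against 1607, 496 and 713 in flox chow. Its log2 fold change of −1.56 ± 0.57 became −1.08 without flox chow replicate 1. The miR-15 and miR-16 seed family had 6 of 6 members below 0 with a median of −0.22, and 4 of them turned positive with plain totals. miR-16-5p led it (−0.82 ± 0.36), and without flox chow replicate 3, which held 52629 CPM against 22062 and 21440 in the other chow libraries, it was at −0.29.

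Less abundant entries also lay below the chow range in CPM. miR-511-3p, encoded in the macrophage mannose receptor gene Mrc1, had 19.6, 29.9 and 8.95 CPM in KO HFFC against 109, 104 and 33.9 in flox chow, with 12.1 to 129 in flox HFFC. Its log2 fold change was −2.07 ± 0.83. miR-338-3p had 34.9, 14.9 and 14.9 CPM in KO HFFC against 43.7, 64.9 and 62.2 in flox chow (−1.38 ± 0.59), and miR-137-3p had 39.3, 24.3 and 38.8 against 76.5, 104 and 84.8 (−1.38 ± 0.64). Both are best known from the nervous system. miR-101a-3p, which targets Ezh2, had 39.3, 80.2 and 50.7 CPM in KO HFFC against 114, 87.8 and 102 in flox chow (−0.82 ± 0.47, or −1.24 without KO HFFC replicate 2). Few reads stood behind some of these values. miR-1291 had 4, 2 and 1 counts in KO HFFC against 17, 10 and 19 in flox chow and passed the low-count filter through the flox libraries alone, and miR-486b-5p, a red blood cell miRNA, had 17, 3 and 2 counts against 33, 58 and 18. Of the predicted entries, predicted miR205-5p, a separate entry from miR-205-5p, had 796, 1136 and 1758 CPM in KO HFFC against 2649, 2524 and 5888 in flox chow (−1.58 ± 0.48, edgeR adjusted p = 0.275). Predicted miR328-5p lay the other way, with 28, 14 and 7 counts in KO HFFC against 4, 0 and 0 in flox chow. The value of miR-1a-3p, of heart and skeletal muscle, was −4.08 ± 1.57 and rested on 1 library. Its CPM were 54.5, 108 and 191 in KO HFFC and 111, 41.9 and 5820 in flox chow, and without flox chow replicate 3 the log2 fold change was 0.57.

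The low-count filter removed 7 entries that were high in 2 KO HFFC libraries, and these are named after their values were seen. miR-204-5p, a miRNA of pigment epithelium and other epithelia encoded in an intron of Trpm3, had 5, 1125 and 2105 counts in KO HFFC against 1, 1 and 4 in flox chow, and 1, 2 and 1 in flox HFFC. miR-205-5p, of stratified epithelia, had 6, 101 and 161 counts in KO HFFC against 4, 7 and 0 in flox chow. miR-135b-5p had 0, 72 and 133 counts against 0, 0 and 1. KO HFFC replicate 1 was within the chow range or next to it in each case. The same pattern was seen for miR-200c-3p (6, 59 and 117 counts in KO HFFC against 11, 12 and 0 in flox chow), miR-27a-5p, miR-935 and miR-211-5p. The last differs from miR-204-5p by 1 base and had 0, 22 and 32 counts in KO HFFC and 0 in all 6 flox libraries. Together these 7 entries made up 0.00449%, 0.308% and 0.848% of miRNA counts in KO HFFC against 0.00350%, 0.00294% and 0.00275% in flox chow. The 95% Wilson intervals, which cover counting error alone, were 0.293% to 0.325% in KO HFFC replicate 2 and 0.816% to 0.881% in replicate 3. These libraries are also the ones in which miR-181b-5p, miR-92b-3p and miR-125a-5p were highest, and whether all of these entries share a source was not tested. DESeq2 called miR-204-5p (adjusted p = 0.000498) and miR-205-5p (0.000781), and the call compares all 3 libraries although 1 of them was at the chow level. They were singled out for being high in 2 of these libraries, so the calls are no independent support.

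**Figure D3:**
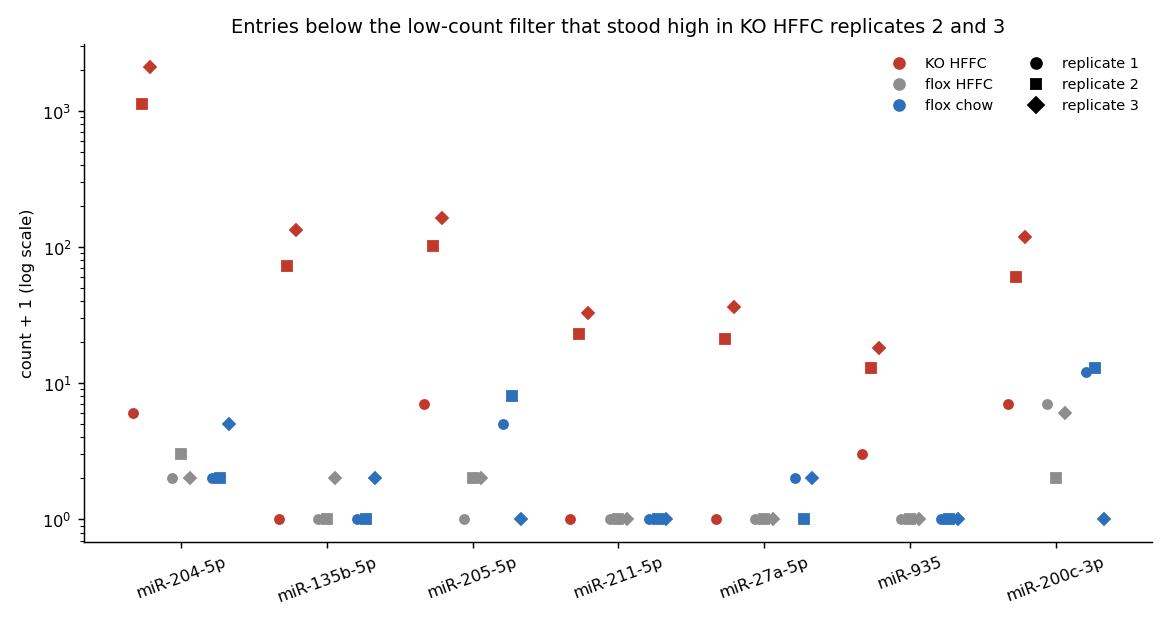
Counts plus 1 (log scale) of 7 entries outside the edgeR test in each library, with KO HFFC at the left in red, flox HFFC in grey and flox chow at the right in blue within each entry. Marker shape gives the replicate number and a count of 0 is drawn at 1. The red squares and diamonds, KO HFFC replicates 2 and 3, lie above all other points, and the red circle, replicate 1, lies among them or next to them.

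Lists of cell type markers were read to see whether the cellular sources of the RNA differed. In such bulk libraries fewer cells of a type and less RNA per cell cannot be told apart. The tissue label held, as hepatocyte miRNAs were the largest of the marker lists in every library, with 28.5% to 35.6% of miRNA counts in KO HFFC and 25.4% to 42.3% in flox chow. Of its 9 tested members 3 were higher and 6 lower, with a median of −0.32. The 2 above the chow range were the arms of miR-802, and miR-148a-3p lay below it in CPM (8.06% and 9.68% over all entries tested). miR-122-5p itself had 92691, 93882 and 82450 counts in KO HFFC against 99173, 106223 and 73731 in flox chow. All 6 tested members of the red blood cell list were below 0 (median −1.03), compared with 5 of 6 with plain totals and with all library tags. Its summed level overlapped, at 5334 to 7256 CPM in KO HFFC and 6173 to 11228 in flox chow. miR-451a, its most abundant member, had 5575, 5249 and 7196 CPM in KO HFFC against 5976, 10945 and 6058 in flox chow. The immune cell list split 5 to 3 (median 0.12, or −0.04 with upper-quartile factors). miR-155-5p, induced in activated macrophages, had 105, 203 and 188 CPM in KO HFFC against 114, 112 and 67.9 in flox chow. In CPM miR-342-3p lay above the chow range in all 3 KO HFFC libraries and miR-142a-5p below it (−0.26 ± 0.43). As shares of counts miR-142a-5p overlapped, while miR-342-3p stayed above. The stellate and other mesenchymal list had 6 of 8 members above 0 (median 0.45), among them both arms of miR-199a, which stellate cells express. miR-145a-3p was the member below the chow range in CPM, and it overlapped as shares of counts. miR-199a-3p and miR-199b-3p, both among the 6, share a seed. They took 0.00568% and 0.266% of counts in KO HFFC replicate 2, but 0.148% and 0.00228% in KO HFFC replicate 3. The split of reads between them is uncertain, so they are not counted as independent. The bile duct and other epithelial list had 3 of 4 tested members above 0 (median 0.59), against 2 of 4 with upper-quartile factors. It held 1278 to 2050 CPM in sum in KO HFFC and 701 to 1008 in flox chow, while flox HFFC, at 568 to 2525, spanned both. Most of this sum was miR-429-3p. The sum also held miR-200c-3p, an entry outside the test that was high in KO HFFC replicates 2 and 3. The list of sensory, neural and surface epithelial miRNAs, which holds miR-204-5p and its like, summed to 327, 2685 and 7781 CPM in KO HFFC against 272 to 361 in flox chow. That sum was carried by entries outside the test in KO HFFC replicates 2 and 3. Its 3 tested members were miR-183-5p at 1.95, miR-182-5p at −0.59 and miR-96-5p at −0.26 (median −0.26), all with overlap.

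**Figure D4:**
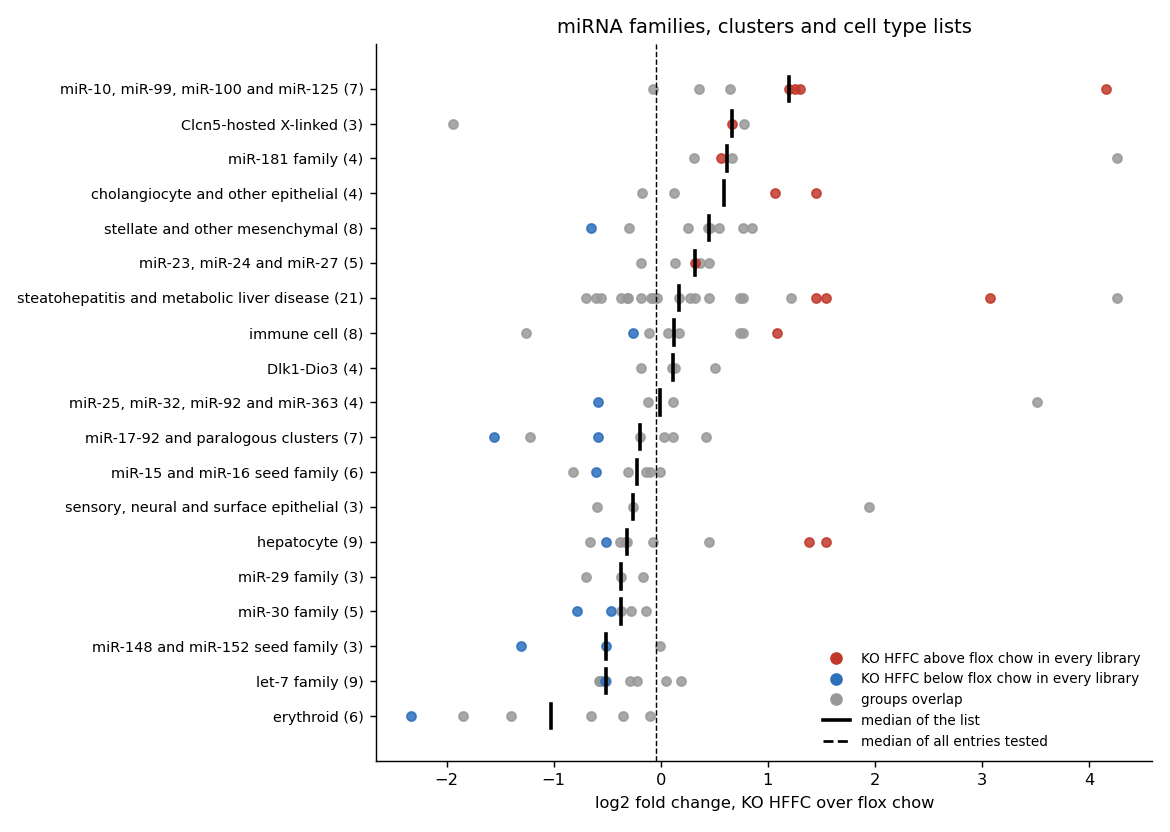
Log2 fold change of KO HFFC over flox chow (horizontal axis) of the tested members of each family, cluster or marker list with 3 or more of them (vertical axis, number of tested members in brackets), 1 point per miRNA. Red points lie above and blue points below the chow range in all 3 KO HFFC libraries, black bars are list medians and the dashed line is the median of all 248 entries. Among the lists drawn, the miR-10, miR-99, miR-100 and miR-125 relatives have the highest median, at 1.19, and the red blood cell list the lowest, at −1.03.

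miRNAs that the literature links to steatohepatitis and metabolic liver disease were split, with 11 of 21 tested members above 0, 10 below and a median of 0.17. Above the chow range were miR-802-5p, miR-149-5p and miR-222-3p (3 members), and 0 lay below it, where 8.06% and 9.68% of all entries tested did. The profibrotic miR-21a-5p had 7147, 17855 and 3438 counts in KO HFFC against 13316, 15291 and 2331 in flox chow, with wide spread in both groups. The miR-29 family, which restrains collagen, had 3 of 3 members below 0 (median −0.37), 1 of which was positive with plain totals. For the miR-23, miR-24 and miR-27 relatives 4 of 5 were above 0 (median 0.32), against 3 of 5 with upper-quartile factors or all library tags, and miR-24-3p was above the chow range at 12227, 9628 and 10010 CPM in KO HFFC against 9484, 9297 and 6691 in flox chow.

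Members of 1 genomic cluster often come from a shared transcript, and in several clusters they did not stand together. At the miR-17-92 cluster (chr14:115043684-115044496, plus strand) all 4 tested members were below 0, from −0.20 for miR-17-5p, which was at 0.01 with plain totals, to −1.56 for miR-19b-3p. In the paralogous miR-106b, miR-93 and miR-25 cluster on chromosome 5 the 3 members had values of 0.42, 0.03 and 0.12, the last 2 of which are smaller than the shift between scalings. miR-20a-5p, with the seed of miR-17-5p, had 50.2, 112 and 32.8 CPM in KO HFFC against 269, 145 and 39.6 in flox chow, with overlap. In the miR-192 and miR-194 cluster 4 of 4 tested arms were below 0 (median −0.53), and in the miR-199a and miR-214 cluster 4 of 4 were above 0 (median 0.65). None of the miR-199a and miR-214 arms lay outside the chow range, and in the miR-192 cluster miR-192-5p was positive with plain totals. The value of miR-199a-3p, 0.54 ± 1.52, rests on the uncertain split of reads with miR-199b-3p. The X-linked cluster hosted by Clcn5 had 3 tested members (median 0.66), and miR-532-5p was above the chow range with 558, 433 and 433 CPM in KO HFFC against 264, 431 and 198 in flox chow. Of 26 seeds that at least 2 tested miRNAs shared, let-7 was the largest group, with 10 miRNAs.

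**Figure D5:**
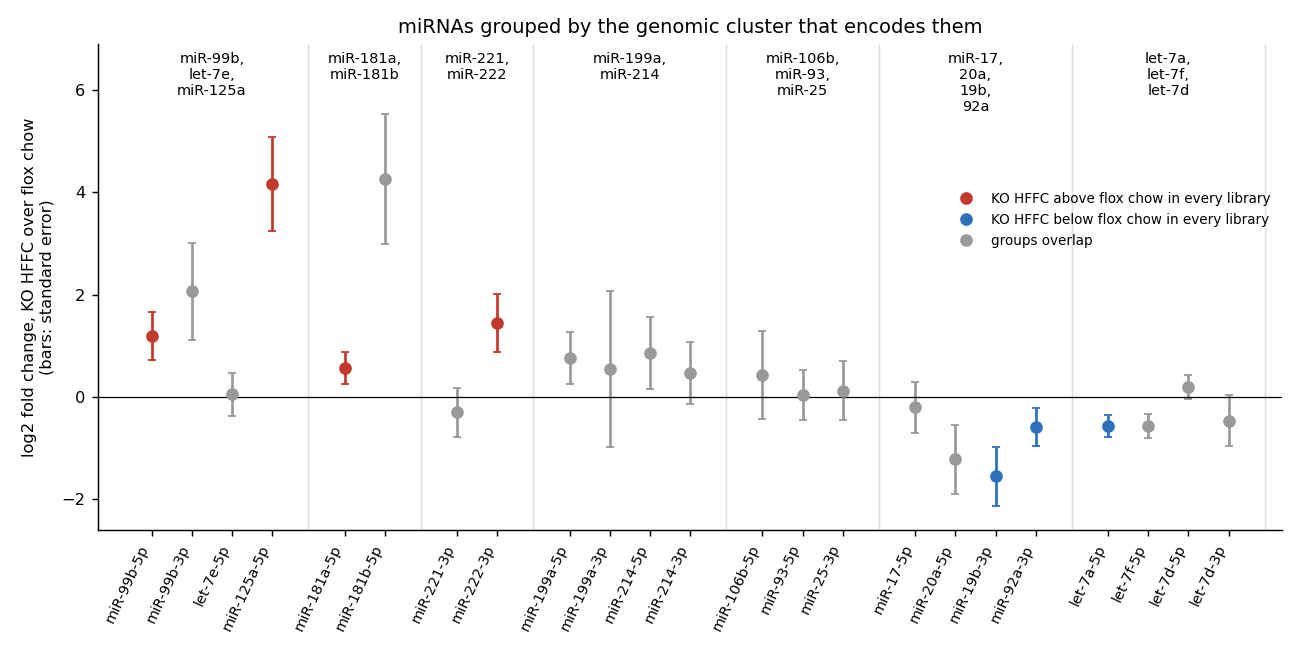
Log2 fold change of KO HFFC over flox chow (vertical axis, bars are standard errors of the edgeR fit) for miRNAs of 7 genomic clusters, 1 point per mature miRNA. Red and blue points lie above and below the chow range in all 3 KO HFFC libraries and grey points overlap it. miR-125a-5p at 4.16 and let-7e-5p at 0.05 come from 1 cluster, as do miR-181b-5p at 4.26 and miR-181a-5p at 0.57.

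Shares of the 10 most abundant miRNAs are given as description, since an exact test of 3 against 3 libraries cannot give a p below 0.1. The 10 leading miRNAs together took 64.1%, 59.4% and 66.4% of counts in KO HFFC against 66.3%, 63.0% and 71.6% in flox chow. miR-122-5p took 23.1% ± 3.35 in KO HFFC and 23.3% ± 9.42 in flox chow (SD, n = 3 each). let-7f-5p took 7.10% ± 1.03 in KO HFFC and 8.80% ± 1.60 in flox chow, and let-7g-5p took 5.89% ± 0.979 and 7.34% ± 1.29. Exact two-sided permutation tests of the 10 shares gave p of 0.2 to 1, adjusted p of 1 for each, where 3 against 3 libraries can reach 0.1.

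Of the 4 miRNAs that the study names for this experiment, miR-489-3p was not analysed here, and miR-28-5p was taken as miR-28a-5p, the single miR-28 entry of the 5p arm in the count table. miR-28a-5p had enough counts for the edgeR test, with 85.1, 61.6 and 74.6 CPM in KO HFFC against 54.6, 81.1 and 28.3 in flox chow, a log2 fold change of 0.39 ± 0.52 with a 95% interval of −0.75 to 1.52. The groups overlapped. miR-3473a had 0 counts in all 3 KO HFFC libraries against 0, 0 and 7 in flox chow, and miR-500-3p had 0 in KO HFFC against 4, 0 and 4. By counting error alone a count of 0 allows up to 3 counts, or 5.60 to 8.95 CPM in the KO HFFC libraries. Both entries had too few counts for the edgeR test, and no difference is read from them. The study reports the miRNAs it names as raised by HFFC in floxed mice and as reversed by the knockout. A comparison of KO HFFC with flox chow does not test that pattern. In sum miR-28a-5p, miR-3473a and miR-500-3p held 112 to 114 CPM in flox HFFC, 61.6 to 85.1 in KO HFFC and 63.4 to 90.5 in flox chow. Differences in this sum were not tested.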

How the data were processed

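Small RNA was sequenced from what the sample titles and the study's methods call liver exosomes. The protocol in the labels describes tissue total RNA instead, and it differs from the methods on the library kit and on molecular identifiers as well. The submitters' processing notes name Bowtie2, the study names miRBase, while the sources used here name no counting tool, predictor or genome build. The authors deposited whole-number counts per mature miRNA and library, and RPM values that are each count divided by the total tags of its library. The group means of counts and of RPM that the authors also deposited were not used.

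Counts were tested with edgeR 4.0.16 in R 4.3.3 by a robust quasi-likelihood F test with TMM factors, fitted to all 9 libraries after filterByExpr at its minimum of 10 counts. Benjamini-Hochberg adjustment covered the 248 entries tested (30 predicted), and the threshold was 0.05. The 474 entries not tested, 53 of them at 0 in all 6 libraries, took 0.137% to 1.07% of counts per library. The SE is the size of the log2 fold change over the root of F, and intervals are 95%. The common biological coefficient of variation was 55.0%. DESeq2 1.42.0, limma-voom 3.58.1, other scalings and filters, and fits without each library were alternatives. The fit was first tested on simulated data. Replicate numbers did not pair the groups.

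The miRNAs named were the 32 of lowest p, those that DESeq2 called, the 10 most abundant, the 4 of the study, the 4 most abundant tested members of a list, and both arms of a named hairpin; others are marked, or describe the entries outside the chow range or a cluster. The comparison, its members and the lists were chosen with earlier results of these data known. Sequences and positions are from RefSeq (GRCm38.p6) and host genes from GENCODE M21. Clusters join miRNAs within 10 kb on 1 strand.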

Additional observations from a re-analysis of the deposited data

Results flagged for a closer look

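Signals outside the edgeR test are given here, each as the total count over the 3 KO HFFC libraries beside that of the 3 flox chow libraries. They were picked because the second highest share in KO HFFC was more than 5 times the highest share in flox chow, or the share that 3 counts would give there. miR-204-5p had 3235 counts in KO HFFC against 6 in flox chow, miR-205-5p had 268 against 11, miR-135b-5p had 205 against 1, and miR-200c-3p had 182 against 23. miR-27a-5p had 55 counts in KO HFFC against 2 in flox chow, miR-211-5p had 54 against 0, and miR-935 had 31 against 0. In each of the 7, KO HFFC replicates 2 and 3 held nearly all of the KO HFFC counts. The cause was not tested.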

How the results depend on the processing

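The count of entries that edgeR called was 0 with TMM, RLE and upper-quartile factors, with a mean of at least 50 counts, with limma-voom, in a fit of the 6 libraries and at an adjusted p of 0.1. It was 1 of 248 with plain totals, 4 of 248 with all library tags, 10 of 722 without a low-count filter and 6 of 718 with DESeq2. Without the filter 8 of the calls were higher in KO HFFC, among them miR-802-5p and miR-466i-5p (edgeR adjusted p of 0.0282 and 0.0465). The 2 lower ones were miR-7a-5p and predicted miR205-5p (0.0282 and 0.0187). With all library tags 3 were higher, and the lower one was miR-1a-3p (0.0496). Counts pooled per group under Poisson sampling, which ignore the spread between mice, gave 166 of 248, 83 in each direction. Leaving out each library in turn gave 0 to 5. The 5 without KO HFFC replicate 1, of 281 tested, were miR-204-5p, miR-205-5p and miR-135b-5p together with miR-125a-5p and miR-149-5p. The first 3 of these do not pass the low-count filter with all libraries. They enter only through the remaining KO HFFC libraries, in which they are high, so their calls follow from that choice. The 32 entries at an unadjusted p under 0.05 became 10 with all library tags, 61 without a filter, 19 with a mean of at least 50 counts, 12 without KO HFFC replicates 2 and 3 together and 18 to 44 without 1 library. Entries outside the chow range, 44 in all, were 19, 73, 28 and 141 under the same 4 settings and 47 to 97 without 1 library, where fewer libraries make a gap more likely. The number of entries tested differed between these settings, so a higher count need not be a higher share. It was 248 with all library tags, 722 without a filter and 147 with a mean of at least 50 counts. Without KO HFFC replicates 2 and 3 together it was 292, and without 1 library 266 to 285. With a replicate block edgeR called 0 and had 25 entries at an unadjusted p under 0.05 (lowest adjusted p 0.104 for miR-125a-5p, log2 fold change 3.78). Deviations of libraries with 1 number had correlations of −0.10, −0.13 and 0.22, so the numbers were not taken to pair the mice.

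Of 57 named entries 51 kept their direction under all settings. The others were small or rested on few libraries. Without KO HFFC replicates 2 and 3, miR-466i-5p was at −0.032, miR-378c at −0.10, let-7e-5p at −0.48 and miR-17-5p at 0.18, while miR-802-5p was at 2.27. let-7e-5p was at −0.19 with upper-quartile factors, at −0.057 in a fit of the 6 libraries and at −0.21 to 0.14 without 1 library, and miR-17-5p was at 0.0094 with plain totals. Without 1 library miR-1a-3p ranged over −4.901 to 0.57 and miR-122-5p over −0.65 to 0.16. As differences in deposited RPM, miR-126a-3p was at −100.6, miR-192-5p at −75.3 and miR-22-3p at −101.6, opposite in sign to their shares. Differences of shares without 1 library ran, in percentage points, over −4.00 to 5.10 for miR-122-5p, −0.1995 to 1.54 for miR-126a-3p, −0.0589 to 0.883 for miR-192-5p, −0.152 to 1.44 for miR-22-3p, −0.684 to 0.312 for miR-26a-5p and −0.631 to 0.1998 for let-7c-5p. The difference in the share of tags ran over −0.660 to 0.220.

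List medians without 1 library ranged over −0.59 to 0.16 for hepatocyte, −1.84 to −0.56 for erythroid, −0.29 to 0.41 for immune cell, 0.34 to 0.69 for bile duct and other epithelial, 0.63 to 1.32 for the miR-10, miR-99, miR-100 and miR-125 relatives, −0.76 to −0.075 for miR-15 and miR-16, −0.56 to −0.41 for miR-30, −0.087 to 0.33 for miR-23, miR-24 and miR-27, −1.28 to 0.70 for the Clcn5 cluster and −0.070 to 0.43 for Dlk1-Dio3. Without KO HFFC replicates 2 and 3 the hepatocyte median was 0.095, the epithelial 0.90, that of the miR-10, miR-99, miR-100 and miR-125 relatives 0.77 and that of Clcn5 −1.40. With 3 libraries a group and a median SE of 0.559 on the log2 scale, small differences were not detectable at this depth.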
